A study of Mus musculus with 4 samples.

Results

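Isl1, Isl2, Lhx1, Lhx2, Lhx3, Lhx4, Lhx5, Lhx9, Lmo4 and Ldb1 were followed in mouse retina at E13.5, a stage of embryonic development. The design sets 2 control libraries against another 2 that carry the label Isl1cKO, and values are given below in the order of the replicate numbers. The genes were taken by name from the authors' tables, which list 25239 gene IDs, and all 10 were found on 1 row per library. The 8 Isl and Lhx genes encode LIM-homeodomain transcription factors, Lmo4 a LIM-only protein and Ldb1 the cofactor that binds both kinds. The series describes the Isl1cKO retina as lacking Isl1. The labels give neither the strain, the Cre driver, the deleted part of Isl1, the genotype behind the word control, nor whether a library came from 1 or several embryos. P-values therefore measure only the spread between these libraries, which may be technical.

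LIM domains are zinc-binding modules that contact other proteins, and in LIM-homeodomain factors they stand beside a homeodomain that binds DNA. LDB1 self-associates and brings LIM-homeodomain proteins together in pairs or larger complexes. LIM-only proteins have no homeodomain and compete for the same surface of LDB1. In the retina, ISL1 acts with POU4F2 in the differentiation of ganglion cells and also marks starburst amacrine cells and bipolar cells, while LHX2 acts in the early eye field and in progenitors.

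Values are TPM, a transcript abundance scaled to depth and transcript length, so that levels of different genes can be compared. Aligned sequence per library, read from coverage and FPKM, lay between 12.6 and 14.3 gigabases, lowest in Isl1cKO replicate 2, and between 13554 and 13932 genes reached 1 TPM. The 12 retinal progenitor markers summed to between 6846 and 8073 TPM per library, a sum of genes with changes in both directions, as given below. Summed lens markers were lower in the libraries labelled Isl1cKO, at 8.48 and 6.47 TPM beside 155 and 188 TPM in control. Summed red blood cell markers were lower too, at 1335 and 183 TPM beside 2784 and 4016 TPM. The part of either difference in the results below was not tested.

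The control levels spanned a wide range. Ldb1 was highest with a mean of 305 TPM, followed by Isl1 with 221, Lhx2 with 175 and Lmo4 with 59.3 TPM. Isl2 came next with 5.43 TPM, then Lhx4 with 3.38 and Lhx3 with 1.87 TPM. Lhx9, Lhx5 and Lhx1 stood at 0.799, 0.773 and 0.610 TPM. From Ldb1 down to Lhx9, both control values of each gene lay above both of the next gene in the order. Lhx9 could not be separated from Lhx5, nor Lhx5 from Lhx1, by the spread of the 2 control libraries. In the libraries labelled Isl1cKO the order ran Ldb1, Isl1, Lhx2, Lmo4, Lhx4, Isl2, Lhx3, Lhx5, Lhx9 and Lhx1. There Isl2, Lhx4 and Lhx3, at means of 1.72, 1.91 and 1.70 TPM, could not be separated. The values also overlapped between Ldb1 and Isl1, Lhx5 and Lhx9, and Lhx9 and Lhx1.

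**Figure D1:**
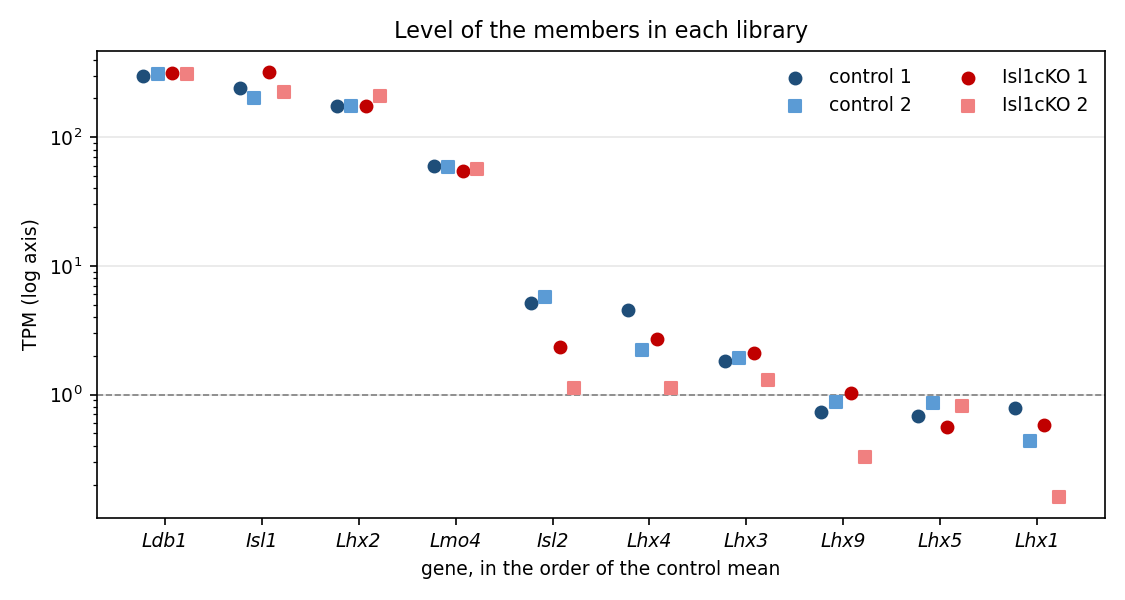
Level of the 10 genes in each library, in TPM on a log axis, with genes in the order of their control mean. Circles are replicate 1 and squares replicate 2, blue for control and red for Isl1cKO, and the dashed line marks 1 TPM. The 4 genes on the left lie between 54.5 and 321 TPM, and the values of Isl2 are the only ones on the right in which both Isl1cKO libraries lie below both controls.

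The 7 members with at least 1 TPM in at least 2 libraries were tested with limma on log2(TPM + 1), and Lhx1, Lhx5 and Lhx9 fell short of that minimum. None of the 7 passed an adjusted p-value of 0.05, where 0.493% of the 13984 genes tested did. At an unadjusted p-value under 0.05 there was 1, Isl2, against 12.1% of all genes tested. Fitted changes were negative in 4 and positive in 3 of the 7, with a median of -0.09 beside -0.05 over all genes tested. The libraries of the groups did not overlap for 2 of the 7, Isl2 and Lmo4, both lower, where 44.9% of all genes tested did not overlap and 30.0% were lower without overlap.

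Of the Islet paralogs, Isl2 was at lower levels in both libraries labelled Isl1cKO than in both controls, while Isl1, the gene named as deleted, was not lower. The 250 bases before the RefSeq start site of each (GRCm38.p6, the assembly called mm10) are shown, as the stretch of DNA next to which each of these transcripts begins. Capitals mark TAAT on either strand, the core of many homeodomain sites.
Isl1, chr13:116309689-116309938, minus strand: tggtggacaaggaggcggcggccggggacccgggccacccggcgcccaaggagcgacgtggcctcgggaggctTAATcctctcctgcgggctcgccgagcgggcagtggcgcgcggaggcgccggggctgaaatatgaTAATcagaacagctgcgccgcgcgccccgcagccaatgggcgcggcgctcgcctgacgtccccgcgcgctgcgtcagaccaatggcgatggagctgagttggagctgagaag
Isl2, chr9:55540899-55541148, plus strand: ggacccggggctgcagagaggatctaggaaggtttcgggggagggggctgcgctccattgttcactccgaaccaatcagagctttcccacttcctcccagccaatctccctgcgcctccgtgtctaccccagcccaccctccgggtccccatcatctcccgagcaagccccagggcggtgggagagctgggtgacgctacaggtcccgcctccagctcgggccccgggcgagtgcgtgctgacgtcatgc
Motifs were counted in windows of 300 bases, which also hold the first 50 transcribed bases. The Isl1 window holds 2 TAAT matches, at -177 and -112 bases from the start site, and the Isl2 window holds 0. TAAT, or ATTA on the other strand, occurs in 58.0% of all 32851 promoter windows of that length. The longer motifs TAATTA, which reads the same on both strands and contains TAAT, and CTAATG, or CATTAG on the other strand, occur in 5.29% and 7.36% of windows and in neither of these. Of the 9 members with a window, 5 hold TAAT in the window nearest the start in the tables, and 0 hold TAATTA or CTAATG. A match is a description of the letters only.

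Isl1 (chr13:116298270-116309688, minus strand) was at 242 and 201 TPM in the controls, against 321 and 223 TPM in the libraries labelled Isl1cKO. The highest value was in Isl1cKO replicate 1, and Isl1cKO replicate 2 lay between the controls. The log2 fold change was 0.28 (SE 0.21, 95% interval -0.28 to 0.84; limma, adjusted p = 0.683). The targeted gene was thus not lower under the label that names its loss, and higher or lower is meant throughout by label. The tables give 1 value per gene and none per exon, so this level does not check the deleted part. Without Isl1cKO replicate 1 the log2 fold change was 0.01, and without Isl1cKO replicate 2 it was 0.54.

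Isl2 (chr9:55541149-55546178, plus strand), the second Islet gene, is expressed in a subset of ganglion cells. Its level was 5.11 and 5.74 TPM in the controls, against 2.33 and 1.12 TPM in the libraries labelled Isl1cKO. Both control values were higher, and the libraries labelled Isl1cKO differed from each other by more than the controls did. The means were 5.43 ± 0.449 and 1.72 ± 0.853 TPM (SD, n = 2 each), a ratio of 3.15. On the log2(TPM + 1) scale the fold change was -1.27 (SE 0.24, 95% interval -1.90 to -0.65). Its adjusted p-value in limma was 0.173, so it did not pass over all genes tested. It ranked 331st by p-value among the 13984 genes, and 0.837% of them had a more negative fold change.

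The depth behind Isl2 can be given in bases. Its coverage times a transcript length of 1851 bases gave whole numbers of bases, within 0.01, in all 4 libraries. They correspond to 49.6 and 52.5 kilobases of aligned bases for the controls, against 23.0 and 10.3 kilobases for the libraries labelled Isl1cKO. Read length is not given in the sources used here, so no counting interval was formed.

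The balance within the pair was read in each library. The level of Isl2 was 2.11% and 2.85% of that of Isl1 in the controls, and 0.724% and 0.502% in the libraries labelled Isl1cKO. The groups did not overlap. The exact two-sided permutation p-value was 0.333, the smallest that 2 against 2 libraries allow.

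Ganglion cell markers are given beside the Islet pair. Of 16 tested, 15 had a negative and 1 a positive log2 fold change, with a median of -1.11 beside -0.05 over all genes. With limma 0 passed and 13 had an unadjusted p-value under 0.05, where 0.493% and 12.1% of all genes did. Under other settings, the replicate block apart, up to 6 of the 16 passed, all lower. There were 6 with a mean-variance trend, 4 of 14 tested with FPKM (Gap43, Shh, Elavl4 and Rbpms, also among the 6), 1 with median-ratio scaling (Shh) and 1 without Isl1cKO replicate 1 (Pou4f1). Their summed level was 3946 and 3363 TPM in the controls, against 2037 and 1384 TPM in the libraries labelled Isl1cKO. Pou4f3, a POU factor of ganglion cells, was listed at 0 in Isl1cKO replicate 2. In bulk tissue, fewer cells of a type and less RNA per cell cannot be told apart. The part of the ganglion cell markers in the level of Isl2 was not tested.

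Pou4f2, which encodes the partner of ISL1 in ganglion cells, was the marker with the positive value. Its level was 126 and 124 TPM in the controls, against 135 and 120 TPM in the libraries labelled Isl1cKO. The log2 fold change was 0.02 (SE 0.10; limma, adjusted p = 0.941). Its paralog Pou4f1 was at 19.6 and 19.7 TPM in control and at 9.66 and 4.16 TPM in those labelled Isl1cKO, with a log2 fold change of -1.48 (limma, adjusted p = 0.268). Pou4f3 was at 4.86 and 2.02 TPM in control and at 0.761 and 0 TPM in those labelled Isl1cKO, with a log2 fold change of -1.66 (limma, adjusted p = 0.285). Isl1 and Pou4f2 thus had overlapping values, while Isl2, Pou4f1 and Pou4f3 were lower without overlap, as were 30.0% of all genes tested. None of these last 3 passed the test over all genes.

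**Figure D2:**
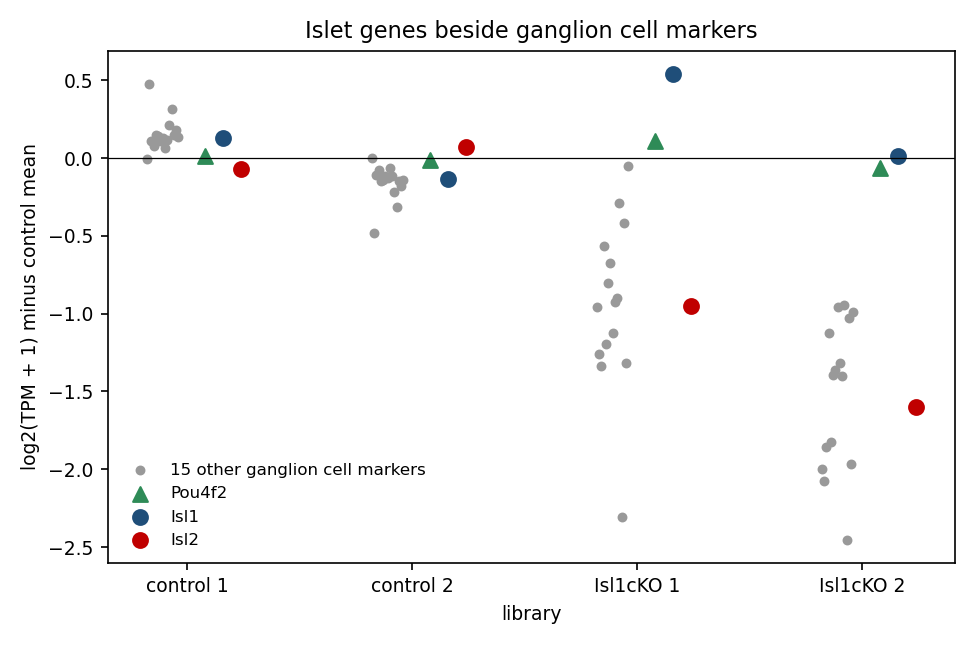
Isl1, Isl2, Pou4f2 and 15 other ganglion cell markers in the 4 libraries, as log2(TPM + 1) minus the mean of the 2 controls for each gene. Each point is 1 gene in 1 library. In both Isl1cKO libraries Isl2 lies within the range of the grey markers, while Isl1 and Pou4f2 lie above all of them.

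Among 16 transcription factors of early ganglion cells, 15 were tested with limma, and 2 passed, both lower. Pou4f1, Pou4f2, Pou4f3, Ebf3 and Eomes also count among the ganglion cell markers above. Of all genes tested 0.465% were called lower, a scale only, since the list was chosen with earlier results of these data known. The 2 that passed were the Iroquois factors Irx2 and Irx3. Irx2 was at 43.3 and 40.9 TPM in control and 17.8 and 16.2 TPM in those labelled Isl1cKO. Irx3 was at 28.6 and 22.1 TPM in control and 1.86 and 2.20 TPM in those labelled Isl1cKO. The median of the 15 was -0.69. The call of Irx2 was lost with a pseudocount of 0.1 and with no filter, at adjusted p-values of 0.0505 and 0.0799 in limma, and with any 1 library left out, at 0.0576 to 0.274. The call of Irx3 was lost with no filter, at an adjusted p-value of 0.0604 in limma, and in 3 of the 4 fits with a library left out, at 0.0529 to 0.0756, but not without control replicate 2, at 0.0457. Ebf1 and Ebf3, which encode COE factors of early neurons, had log2 fold changes of -1.06 and -1.64 with adjusted p-values of 0.0829 and 0.139 in limma. With a mean-variance trend both passed, at 0.0226 and 0.0454, and with FPKM Ebf1 did, at 0.0258. Atoh7, the bHLH factor that makes progenitors competent for the ganglion cell fate, had overlapping values, from 1025 to 1352 TPM in control and from 1058 to 1458 TPM in those labelled Isl1cKO.

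The genes most like the pair across the 4 libraries were found by the Euclidean distance between log2(TPM + 1) profiles centred on the control mean, among 9641 genes with a mean of at least 10 TPM, predicted genes and members left out. Closest to Isl1 were Onecut2, Zcwpw1 and Sipa1l2, at distances of 0.165, 0.198 and 0.204. Onecut2, a factor of ganglion and horizontal cell precursors, stood at 38.9 and 38.1 TPM in control and at 56.0 and 39.3 TPM in those labelled Isl1cKO. Near to Isl2 were Scn3b and Snap91, at distances of 0.286 and 0.307. Scn3b encodes a sodium channel beta subunit and Snap91 a clathrin assembly protein of synapses. None of these 5 genes passed over all genes tested, where 0.493% did, with adjusted p-values from 0.136 to 0.636 in limma, and 4 libraries are few points for a measure of likeness. With FPKM, Snap91 passed at an adjusted p-value of 0.0492 in limma.

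Lhx2 and Lhx9 form the pair related to the fly gene apterous. Lhx2 (chr2:38339281-38369737, plus strand), a factor of progenitors, was at 176 and 174 TPM in the controls, against 174 and 211 TPM in the libraries labelled Isl1cKO. The highest value was that of Isl1cKO replicate 2, the others lay close together, and the groups overlapped. The log2 fold change was 0.13 (SE 0.12, 95% interval -0.19 to 0.45; limma, adjusted p = 0.739). Without Isl1cKO replicate 2 it was -0.0085. Of 12 progenitor markers 6 had a positive and 6 a negative change, with a median of 0.04, and 0 passed with limma, with 3 at an unadjusted p-value under 0.05. These 3, Ccnd1, Fgf15 and Sox9, were all lower. Ccnd1 stood at 1944 and 1498 TPM in control and at 848 and 961 TPM in those labelled Isl1cKO. Sfrp2, another large part of the summed level, was higher, at 1577 and 1787 TPM in control and 1928 and 2352 TPM in those labelled Isl1cKO. Without overlap 6 of the 12 were higher and 4 lower, where 14.9% and 30.0% of all genes tested were. The summed level of the 12 was 8073 and 7669 TPM in control and 6846 and 7657 TPM in those labelled Isl1cKO.

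Lhx9 (chr1:138825186-138847579, minus strand) was near the lower limit, at 0.727 and 0.871 TPM in control and at 1.02 and 0.330 TPM in those labelled Isl1cKO. The libraries labelled Isl1cKO held both the highest and the lowest value. With no minimum level its log2 fold change was -0.13 (SE 0.23; limma, adjusted p = 0.870).

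Lhx3 and Lhx4 encode close paralogs known from motor neurons and the pituitary, and in the retina Lhx4 is also found in cone precursors and bipolar cells. Lhx4 (chr1:155701694-155742027, minus strand) was at 4.51 and 2.24 TPM in the controls, against 2.70 and 1.13 TPM in the libraries labelled Isl1cKO. In both groups replicate 1 held the higher value, and the groups overlapped. The log2 fold change was -0.59 (SE 0.38, 95% interval -1.60 to 0.42; limma, adjusted p = 0.625). It was -0.21 without control replicate 1, -0.97 without control replicate 2, -0.99 without Isl1cKO replicate 1 and -0.19 without Isl1cKO replicate 2.

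Photoreceptor precursor markers are given beside Lhx4. All 7 tested had a negative change, with a median of -0.44, and 0 passed with limma, with 1 at an unadjusted p-value under 0.05. Their summed level was 374 and 340 TPM in control and 343 and 276 TPM in those labelled Isl1cKO. Crx, the homeodomain factor of photoreceptors, stood at 49.1 and 41.6 TPM in control and at 37.9 and 28.3 TPM in those labelled Isl1cKO. Of 7 bipolar cell markers 3 were tested with limma and 0 passed (2 at an unadjusted p-value under 0.05), with a median of -0.26 and summed levels of 33.4 and 32.2 TPM in control and 32.9 and 37.1 TPM in those labelled Isl1cKO. Most of that sum was Trpm1, which pigment cells also express, and Grm6, a defining gene of ON bipolar cells, stood at 0.0588 TPM or less and at 0 in 2 libraries. The part of these cells in the level of Lhx4 was not tested.

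Lhx3 (chr2:26200212-26208249, minus strand) was at 1.81 and 1.94 TPM in control and at 2.09 and 1.30 TPM in those labelled Isl1cKO. The Isl1cKO values lay on either side of the controls. The log2 fold change was -0.11 (SE 0.16, 95% interval -0.54 to 0.33; limma, adjusted p = 0.839). It changed sign without Isl1cKO replicate 2, to 0.11, and under quantile normalization, to 0.03. Its coverage corresponds to 20.6, 21.1, 24.0 and 13.8 kilobases of aligned sequence at a length of 2375 bases, in the order control replicates 1 and 2 and Isl1cKO replicates 1 and 2.

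Lhx1 and Lhx5 encode a pair of paralogs, of which LHX1 places horizontal cells in their layer. Lhx1 (chr11:84517975-84525534, minus strand) was at 0.785 and 0.435 TPM in control and at 0.575 and 0.161 TPM in those labelled Isl1cKO. Replicate 1 was the higher in each group and the groups overlapped. Its aligned sequence was 17.1 and 8.92 kilobases in control and 12.8 and 3.32 kilobases in those labelled Isl1cKO, at a length of 4154 bases. With no minimum level its log2 fold change was -0.24 (SE 0.21; limma, adjusted p = 0.745). Lhx5 (chr5:120431886-120441457, plus strand) was at 0.684 and 0.863 TPM in control and at 0.562 and 0.814 TPM in those labelled Isl1cKO, from 8.22 to 11.7 kilobases of aligned sequence per library. Here replicate 2 was the higher in each group. The log2 fold change was -0.07 (SE 0.11; limma, adjusted p = 0.848).

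Of 8 horizontal cell markers 7 were tested with limma, with a median change of -0.01. Onecut1 and Prox1, factors of horizontal cells that other early retinal cells also express, had overlapping values. Onecut1 was at 32.3 and 30.0 TPM in control and at 38.7 and 24.6 TPM in those labelled Isl1cKO, and Prox1 had a log2 fold change of 0.08. Amacrine markers, 8 of 11 tested, had a median of -0.26, and 0 passed with limma, with 2 at an unadjusted p-value under 0.05. Of 6 starburst amacrine markers 4 were tested and 1, Fezf1, passed, higher, where 0.0286% of all genes were called higher. Fezf1 is a zinc-finger gene, at 0.710 and 0.769 TPM in control and 2.52 and 2.25 TPM in those labelled Isl1cKO. Its call was lost with no filter and with a mean-variance trend, at adjusted p-values of 0.109 and 0.0975 in limma, and with any 1 library left out, at 0.0629 to 0.373. The other 3 tested had negative changes, -0.42 for Slc5a7, -0.44 for Megf10 and -0.07 for Sox2, and the median of the 4 was -0.25. Chat, the defining gene of starburst cells, stood at 0.0230 TPM or less and at 0 in 3 libraries.

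The cofactors were the steadiest of the tested members in these fits, with the smallest standard errors. Ldb1 (chr19:46032590-46045311, minus strand) was at 299.97 and 311 TPM in control and at 316 and 310 TPM in those labelled Isl1cKO. The values overlapped, and the log2 fold change was 0.03 (SE 0.08, 95% interval -0.17 to 0.24; limma, adjusted p = 0.899). Lmo4 (chr3:144188530-144205255, minus strand) was at 59.8 and 58.8 TPM in control and at 54.5 and 57.1 TPM in those labelled Isl1cKO. Both control values were higher by a small margin, and the log2 fold change was -0.09 (SE 0.08, 95% interval -0.30 to 0.13; limma, adjusted p = 0.737).

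The 8 LIM-homeodomain transcripts were set against Ldb1, since their proteins can bind LDB1. They summed to 432 and 388 TPM in the controls, against 505 and 439 TPM in the libraries labelled Isl1cKO. Isl1 and Lhx2 together made up 96.8% and 96.9% of that sum in control, and 98.2% and 98.9% in those labelled Isl1cKO. The other 6 genes summed to 13.6 and 12.1 TPM in control and to 9.28 and 4.85 TPM in those labelled Isl1cKO. Isl1 alone made up 56.0% and 51.9% of the sum of the 8 in control, and 63.7% and 50.8% in those labelled Isl1cKO. Its RNA was counted in full in all libraries. Whether it yields protein that binds LDB1 under the label Isl1cKO was not measured, so the ratios compare RNA only. They are also ratios of bulk retina, which mixes cell types, and do not give the balance within any type of cell. For each Ldb1 transcript there were 1.44 and 1.25 LIM-homeodomain transcripts in control, and 1.60 and 1.42 in those labelled Isl1cKO. These ratios overlapped between the groups, with an exact two-sided permutation p-value of 0.667, where 0.333 is the smallest possible. With Ldb2, the second LDB gene, added to Ldb1 the ratios were 1.37 and 1.19 in control and 1.53 and 1.35 in those labelled Isl1cKO.

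**Figure D3:**
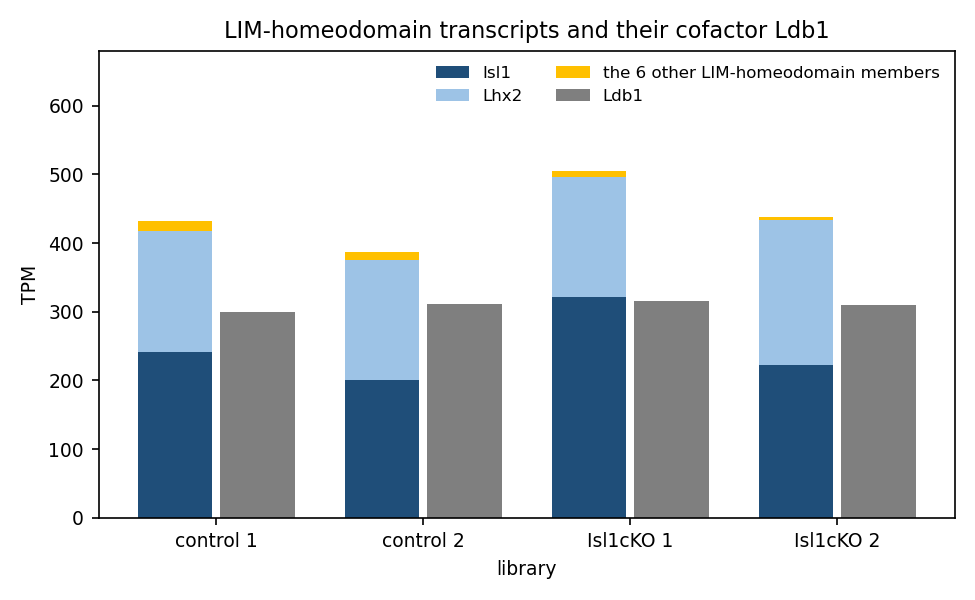
Summed TPM of the 8 LIM-homeodomain genes (stacked bars) beside Ldb1 (grey bars) in each library. Isl1 and Lhx2 fill nearly the whole stack, the 6 other genes hold between 4.85 and 13.6 TPM, and Ldb1 stays between 299.97 and 316 TPM.

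The other LIM-homeodomain, LIM-only and cofactor genes were examined as a list of 12. Lhx6, Lhx8, Lmx1a and Lmx1b stood at 0.123 TPM or less in every library and were not tested. Of the 8 tested with limma, 2 passed, both lower, where 0.465% of all genes tested were called lower, and 0 passed higher. The median log2 fold change of the 8 was -0.12 beside -0.05 over all genes. The 2 genes were Lmo1 and Lmo2, which encode LIM-only proteins related to LMO4.

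Lmo1 (chr7:109138565-109175207, minus strand) was at 17.7 and 21.5 TPM in the controls, against 5.38 and 4.75 TPM in the libraries labelled Isl1cKO. The groups were far apart relative to the spread within each. It fell by 1.76 on the log2(TPM + 1) scale (SE 0.13; limma, adjusted p = 0.0249). The 250 bases before its RefSeq start site are shown because Lmo1 passed the test, with TAAT on either strand in capitals.
Lmo1, chr7:109175208-109175457, minus strand: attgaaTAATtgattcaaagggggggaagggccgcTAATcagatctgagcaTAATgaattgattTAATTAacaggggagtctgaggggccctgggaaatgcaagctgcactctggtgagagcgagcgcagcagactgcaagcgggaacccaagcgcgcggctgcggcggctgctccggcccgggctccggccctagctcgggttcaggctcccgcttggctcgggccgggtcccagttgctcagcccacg
The window of 300 bases holds 5 TAAT matches, from -244 to -184 bases from the start site, and 1 TAATTA, the motif found in 5.29% of all windows. The 2 most downstream TAAT matches overlap and form that TAATTA.

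Lmo2 (chr2:103957995-103981878, plus strand), which is also known from blood-forming and endothelial cells, was at 14.8 and 11.2 TPM in the controls, against 1.58 and 1.35 TPM in the libraries labelled Isl1cKO. It fell by 2.50 on the log2(TPM + 1) scale (SE 0.15; limma, adjusted p = 0.0199). Of 8 endothelium markers 1 was tested with limma, and it did not pass at an adjusted or unadjusted p-value of 0.05. Summed, these markers stood at 80.4 and 59.8 TPM in control and at 58.5 and 56.2 TPM in those labelled Isl1cKO. Most of this was Kdr, which retinal progenitors also express. Cdh5, a defining endothelial gene, stood at 2.55 and 0.357 TPM in control and at 0.211 and 0 TPM in those labelled Isl1cKO. Cdh5, Kdr, Tek, Tie1, Emcn and Esam had the same order over the 4 libraries as Lmo2, and Pecam1 and Flt1 did not. The share of all genes with that full order was not counted, so these matches cannot be weighed. All but Kdr were too low to be tested, with Tek at 0.244 TPM or less. Of all genes tested, 46.2% were lowest in Isl1cKO replicate 2, as Lmo2 was. The red blood cell markers, 7 of 8 tested and 0 passed with limma (4 at an unadjusted p-value under 0.05), were lower in each library labelled Isl1cKO, as given above, and 3 passed without Isl1cKO replicate 1. The part of blood and endothelial cells in the level of Lmo2 was not tested.

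Both calls depended on having 4 libraries. With any 1 library left out, the log2 fold change of Lmo1 lay between -1.89 and -1.63 with adjusted p-values from 0.0576 to 0.140 in limma. That of Lmo2 lay between -2.68 and -2.31 with adjusted p-values from 0.0503 to 0.105 in limma. The calls were also lost with no filter on low values, at adjusted p-values of 0.0963 and 0.0799 in limma, and that of Lmo1 with a pseudocount of 0.1, at 0.0505.

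The other 6 tested genes of the list did not pass. Lmo3 stood at 1.66 and 1.61 TPM in control and at 1.64 and 1.26 TPM in those labelled Isl1cKO. Ldb2 stood at 14.9 and 14.4 TPM in control and at 14.2 and 15.8 TPM in those labelled Isl1cKO. Ssbp2, Ssbp3 and Ssbp4, which encode single-stranded DNA binding proteins that stabilise LDB1, had log2 fold changes of 0.04, -0.05 and -0.12. Rlim, an E3 ubiquitin ligase that acts on LIM cofactors, had -0.15. The adjusted p-values of all 6 lay between 0.620 and 0.927 in limma.

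**Figure D4:**
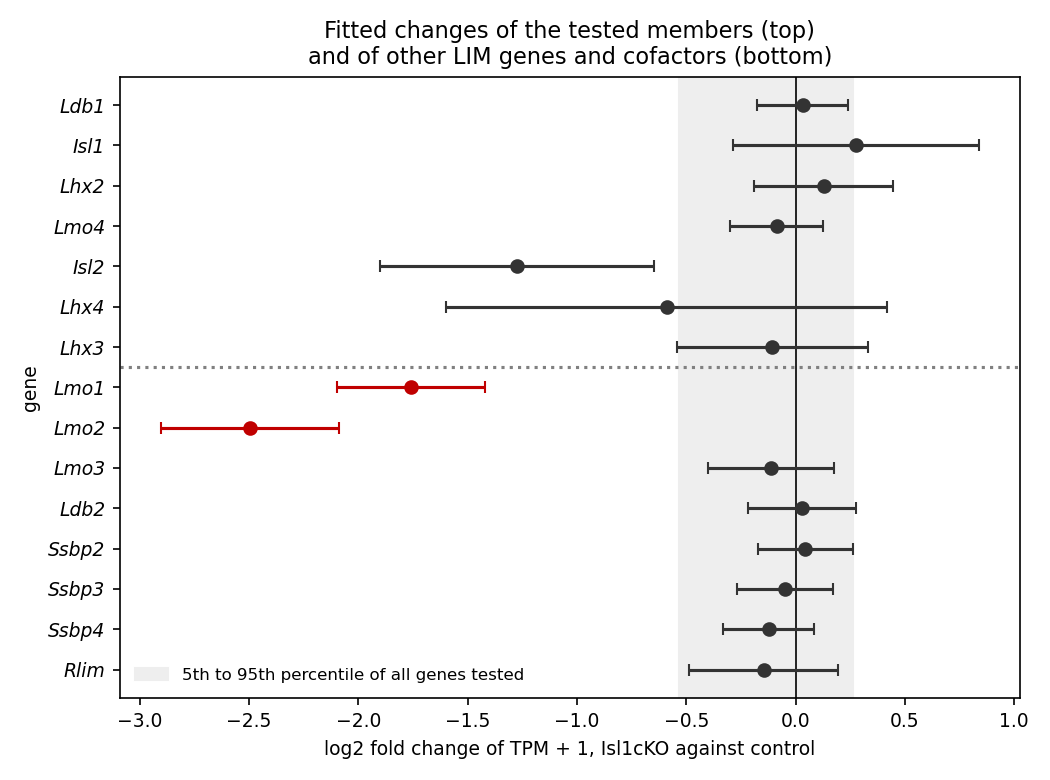
Log2 fold change of TPM + 1, Isl1cKO against control, for the 7 tested members (above the dotted line) and the 8 tested genes of the wider list (below it), with 95% intervals from limma. Red marks an adjusted p-value under 0.05 and the grey band spans the 5th to 95th percentile of all genes tested, -0.53 to 0.26. Only Isl2, Lmo1 and Lmo2 among these 15 have intervals that lie outside the band.

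The LIM-only transcripts were summed after their values had been seen. Lmo1 to Lmo4 together stood at 94.0 and 93.1 TPM in control and at 63.1 and 64.5 TPM in those labelled Isl1cKO. Lmo4 made up 63.6% and 63.1% of that sum in control and 86.4% and 88.6% in those labelled Isl1cKO. The exact two-sided permutation p-value of each was 0.333, the smallest possible. The groups did not overlap in either quantity. Both quantities restate the lower values of Lmo1 and Lmo2 in these same libraries, so this separation is not a further result.

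**Figure D5:**
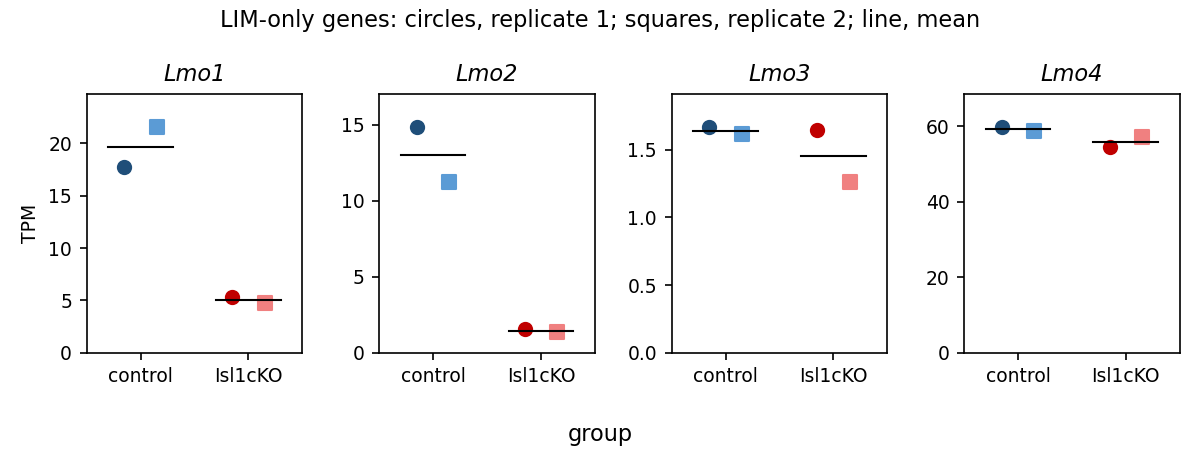
TPM of the 4 LIM-only genes in each group, each panel on its own linear axis from 0. Circles are replicate 1, squares replicate 2 and lines the group mean. Lmo1 and Lmo2 stand at 5.38 TPM or less in Isl1cKO, while Lmo4 stays between 54.5 and 59.8 TPM.

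Lhx5 and Lhx9 are also genes of the forebrain, so markers of diencephalon and telencephalon were read. Of 8 such markers 3 were tested, and 1, Barhl1, passed with limma, higher, where 0.0286% of all genes were called higher. Barhl1 stood at 0.557 and 0.620 TPM in control and at 6.01 and 4.74 TPM in those labelled Isl1cKO. Its call was lost with no filter, at an adjusted p-value of 0.0799 in limma, and without control replicate 1 or control replicate 2, at 0.162 and 0.140. Nkx2-1, a defining gene of the hypothalamus, was listed at 0 in all 4 libraries, and Gbx2 and Sim1 stood at 0.0855 TPM or less. Of the remaining lists, pigment epithelium markers summed to between 26.6 and 42.8 TPM and periocular mesenchyme markers to between 14.4 and 25.4 TPM. Microglia markers summed to 55.2 and 57.03 TPM in control and to 69.6 and 82.6 TPM in those labelled Isl1cKO. Of 8 tested, 7 had a positive change, with a median of 0.30. Without overlap 5 were higher, where 14.9% of all genes tested were. None of the tested markers of these 3 lists passed with limma, while 1, 1 and 4 had an unadjusted p-value under 0.05, and 1 microglia marker, C1qb, passed with FPKM, higher. The part of microglia in any result was not tested. Of 8 lens markers tested 4 passed, all lower, and 2 did so with no filter and 2 without control replicate 1.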

How the data were processed

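RNA of 4 retina libraries was measured by sequencing. Per the labels' protocols, the libraries were strand-specific and made from poly(A)-selected RNA. The submitters' processing notes name Trimmomatic, FastQC, HISAT2, SAMtools and StringTie and the build mm10, without versions. The annotation, and whether strand was used when reads were assigned, are not given in the sources used here. No other gene of the tables overlaps a member.

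Per the file headers, the authors deposited for each library the mean coverage per base (a signal not scaled to depth), FPKM and TPM per gene. TPM summed to 1000000 in each library. No counts are given, so no count test was run. Rows of a gene were summed. FPKM entered an alternative only. Coverage gave depth: aligned bases were taken at the shortest length from 300 to 6000 bases at which coverage times length was whole within 0.01 bases in all libraries, for genes with coverage up to 50. Precision is limited by 2 libraries per group.

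Genes that reached 1 TPM in 2 or more libraries were fitted as log2(TPM + 1) with lmFit and eBayes of limma 3.58.1 (R 4.3.3), on the genotype label alone, with Benjamini-Hochberg adjustment over all genes at a threshold of 0.05. Fold changes on that scale understate those of low genes. The code of the fit was run on data simulated under the model's own assumptions. That checks the code and not whether the model holds for these libraries. The replicate numbers pair nothing in the labels, and the 2 pairs were not treated as paired.

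The members and lists were chosen with earlier results of these data known. The shares over all genes printed beside the counts of a list are therefore a scale and not an independent test. The text names the members, the genes of the lists, and the 3 genes closest in profile to Isl1 and to the member with the smallest p-value; some of these genes are not reported here. Sequences are from RefSeq promoter windows (GRCm38.p6), found for 9 of the 10 members, not for Lhx5, and for Lmo1 but not Lmo2. The alternatives were a pseudocount of 0.1, no filter, a filter of 5 TPM, FPKM, median-ratio scaling, quantile normalization, a variance trend, the replicate block, the highest row per gene and leaving out each library.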

Additional observations from a re-analysis of the deposited data

How the results depend on the processing

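None of the 7 tested members passed the threshold in any alternative fit it entered. Isl1, Isl2, Lhx2, Lmo4 and Ldb1 entered all 9 settings, Lhx4 entered 8 and Lhx3 entered 7, and all 7 entered the 4 fits with a library left out. Lhx1, Lhx5 and Lhx9 were fitted with no filter only, where none passed, and elsewhere gave values with no test. The count of 69 genes past the threshold was 44 with a pseudocount of 0.1, 15 with no filter, 127 with FPKM, 110 with a mean-variance trend and 265 with the replicate block, and ranged from 10 to 37 with each library left out. In the labels same-numbered libraries share only a number, and whether they share a litter or a day is not given. The correlation of their deviations from the group means was 0.126 across genes. With the replicate block the adjusted p-values in limma were 0.0676 for Isl2 and 0.0725 for Lhx4, and no call among the members or the other LIM genes changed. Under the block 9 of the 16 ganglion cell markers passed, among them Gap43 (0.0109) and Shh (0.00714), and 5 of the 15 early ganglion cell factors. Ebf3 and Pou4f3 belong to both lists and are in both counts. Rxrg, Scn3b (0.0263), Snap91 (0.0170) and 2 more lens markers passed under the block as well. Isl2 kept its direction throughout, from -1.68 to -0.87, and from -1.60 to -0.95 with a library left out, with adjusted p-values from 0.0567 to 0.676 in limma over all of these. Lhx1 was -0.71 with a pseudocount of 0.1, as the larger weight of low values implies. Lhx3 was 0.0308 under quantile normalization and -0.32 to 0.11 with a library left out, and Lhx2 was -0.0085 to 0.27. Lmo1 no longer passed with a pseudocount of 0.1 (-1.93) or with no filter (-1.76), and ranged from -1.89 to -1.63 with a library left out. Lmo2 no longer passed with no filter (-2.50) and ranged from -2.68 to -2.31. Other values near 0 changed sign. With a library left out Lhx9 ranged from -0.44 to 0.17 and Lhx5 from -0.18 to 0.03. Lmo3 was 0.0169 under quantile normalization and -0.23 to 0.0012 with a library left out, and Ssbp3 was 0.00073 with FPKM. With a library left out Ldb2 ranged from -0.0453 to 0.11, Ssbp2 from -0.00068 to 0.0903, Rlim from -0.30 to 0.0089 and Pou4f2 from -0.0629 to 0.11. A fit without 1 library takes the lone library to vary like the other group. Unless stated, the cause was not tested. The order of the members by control level was the same with FPKM and in control replicate 2 alone, and 7 of 10 places were the same in control replicate 1 alone. Levels under 1 TPM rest on as little as 3.32 kilobases of aligned sequence, in Lhx1.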
